A study of Mus musculus with 24 samples.

Results

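The DNA replication and S phase genes are 47 mouse genes whose products license origins, unwind and copy DNA, supply deoxynucleotides, and methylate, repair or package the new strands. The genes were listed with earlier results of these data known. Their probes were chosen by gene symbol: every probe whose symbol in the array's probe table was one of the 47 was taken. The brightest detected probe stood for its gene. Of the 47 genes, 44 had a probe in that table, and Pola1, Pole2 and Slbp were not analysed here. Prim1 had a probe that did not pass the detection filter, so 43 members were tested among 8622 genes.

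The cells were RAW264.7, a mouse macrophage-like line that was transformed by a leukemia virus and divides continuously in culture, so they model a proliferating macrophage and not a resting one. They were left untreated or were given LPS at 100 ng/ml, a ligand of TLR4; P3C (Pam3CSK4) at 1 μM, a lipopeptide ligand of TLR2; or R848 at 1 μM, a ligand of TLR7. RNA was taken after 1, 2 or 4 h and hybridised to Illumina bead arrays, with 2 arrays for each of 12 groups of treatment and time. The arrays of a group, A and B, are described in the methods as duplicate biological samples, and their number limits the precision of every value below.

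Replication runs in a fixed order. Before S phase, the origin recognition complex with Cdc6 and Cdt1 loads the MCM helicase onto origins, and in S phase Cdc45 and the GINS complex join it so that it unwinds DNA for the polymerases, which are held to the template by the sliding clamp PCNA. Many of these genes are transcribed at the boundary of G1 and S under E2F transcription factors, so their transcripts are abundant in cycling cells and scarce in resting ones.

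Median signals of the arrays ranged from 95.8 to 115, and between 12299 and 13917 of the 45281 probes passed a detection p of 0.01 on an array. Of 10 macrophage markers, 8, among them Cd14, Csf1r, Cd68 and Lyz2, were detected on all 24 arrays, Itgam was detected on 17 arrays and Mrc1 on none. No T cell, B cell, fibroblast or endothelial marker in the probe table was detected on any array, and of the epithelial markers Krt8 was detected on 5 arrays and Cdh1 on none. A member's value was the mean of 17 to 73 beads (median 41), and the median SD between duplicate arrays was 0.17 on the log2 scale over the members, against 0.129 over all genes. Ligand-treated and untreated arrays of the same time never lay on 1 slide, so at a given time the slide and the treatment cannot be told apart.

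All values below are log2 quantile-normalized signals, and a difference is the mean of a ligand's arrays minus that of the untreated arrays of the same time, so that a negative value means less transcript in treated cells. A member was called at an adjusted p under 0.05 in limma, adjusted by Benjamini and Hochberg over all 8622 genes. With LPS at 4 h, 27 of 43 members were called lower, where 16% of all genes were, and none was called higher. The median difference of the members was -0.69, against -0.06 over all genes, and 40 of 43 lay below 0. With P3C at 4 h, 20 members were called lower (5.43% of all genes), with a median of -0.49, and with R848 23 were (6.38% of all genes), with a median of -0.57. In none of the 9 comparisons was a member called higher, or higher at an unadjusted p under 0.05, where at 1, 2 and 4 h 2.1%, 5.52% and 10.8% of all genes were called higher with LPS (P3C, 1.73%, 3.07% and 5.4%; R848, 2.03%, 3.34% and 6.3%). The largest fall was that of Ung, at -2.11 with LPS at 4 h. Of the called members, 11 fell by more than 2-fold with LPS at 4 h, compared with 3 for P3C and 4 for R848. The share of all genes past that limit was not counted, and LPS also had the largest share of all genes called lower (16%, against 5.43% and 6.38%). Whether these counts differ between ligands by more than those of other genes was thus not tested. Tested directly at 4 h, 2 members were called lower with LPS than with P3C (1.73% of all genes), and 2 than with R848 (1.23% of all genes). Because the RNA came from whole cultures, fewer cells in S phase and less RNA per such cell cannot be told apart.

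The calls at 4 h depended in part on single arrays. Of the 27 calls with LPS, 17 were kept whichever 1 of the 4 arrays was left out, and the count was 20 without untreated 4 h A or without LPS 4 h A. Of the 20 calls with P3C, 11 were kept, and the count was 11 without untreated 4 h A, 13 without P3C 4 h A and 12 without P3C 4 h B. Of the 23 calls with R848, 13 were kept, and the count was 13 without untreated 4 h A and 15 without R848 4 h B. When arrays were scaled to a common median in place of quantile normalization, 24 members were called lower with LPS, 4 with P3C and 7 with R848. The medians of the members then lay at -1.11, -0.56 and -0.70. Of all 8622 genes, 1428, 93 and 131 were called lower with that scaling, where 1377, 468 and 550 were with quantile normalization. With that scaling the LPS differences of 15 of the 27 called members were over 1.5 times larger, at -0.57 to -1.29, among them those of Mcm2, Mcm3, Rfc1, Rfc2, Rfc4 and Tyms. The median of all genes for LPS at 4 h moved down as well, from -0.06 to -0.33, so the larger values are not particular to the members.

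**Figure D1:**
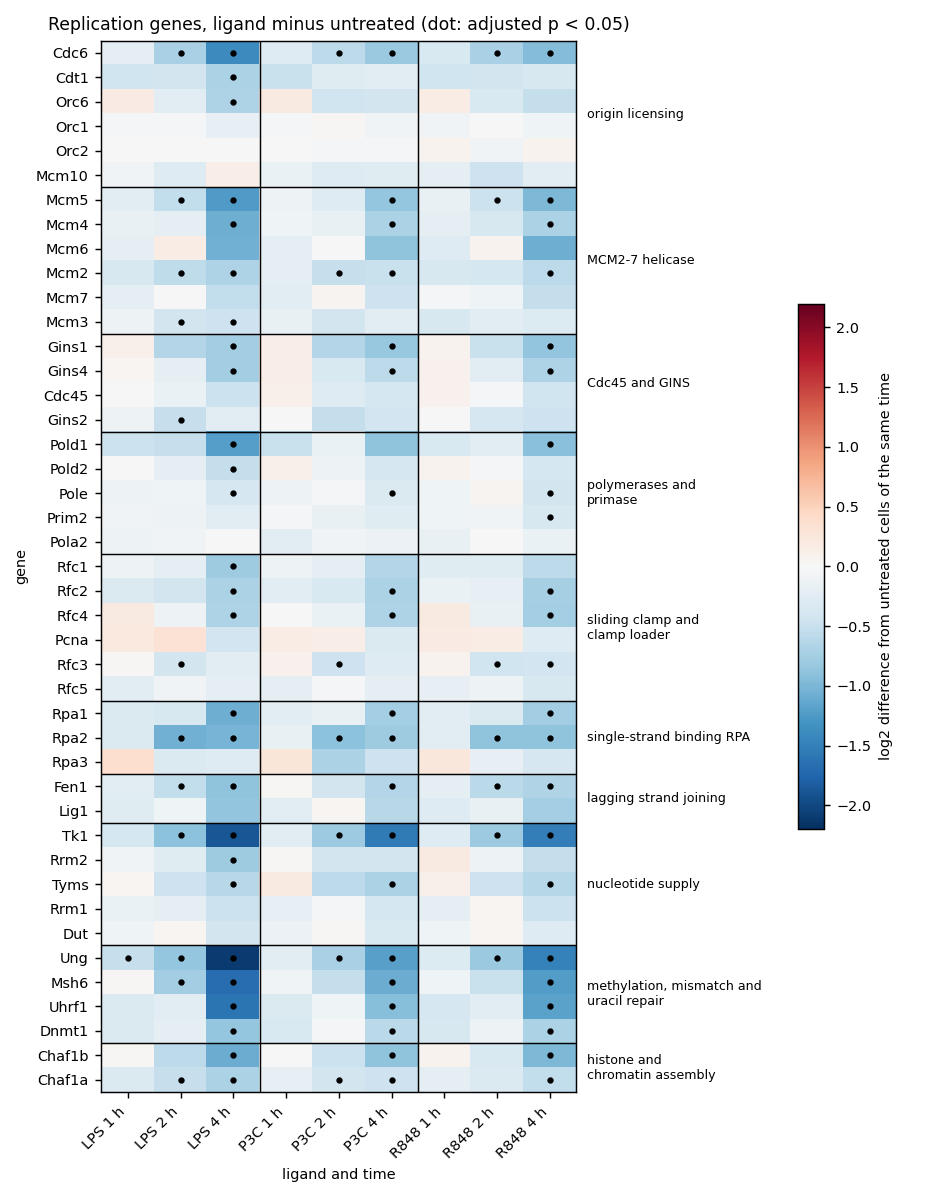
Log2 difference from untreated cells of the same time for the 43 tested members (rows, grouped by role) with each ligand at 1, 2 and 4 h (columns); blue is lower, red is higher, and a dot marks an adjusted p under 0.05. The columns of 4 h hold 27 dots with LPS, 20 with P3C and 23 with R848, all on lower values, and the columns of 1 h hold 1.

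Among the 6 genes grouped under origin licensing, 3 were called lower with LPS at 4 h, Cdc6, Cdt1 and Orc6. Cdc6, the ATPase that recruits the helicase to the origin, read 8.54 and 8.40 in untreated cells at 4 h and 7.07 on both LPS arrays. With P3C it read 7.70 and 7.59, and with R848 7.58 and 7.45. All 6 ligand arrays thus lay below both untreated arrays, the LPS arrays lowest. Cdc6 fell by 1.40 with LPS (SE 0.119, adjusted p 3.39e-07), by 0.82 with P3C (adjusted p 0.000233) and by 0.95 with R848 (adjusted p 4.64e-05). The LPS arrays lay close to 6.9, the average of the lowest level that passed detection, and after background correction by neqc the Cdc6 differences were -2.54, -1.25 and -1.5. At 2 h it had fallen by 0.71 with LPS (adjusted p 0.000798), by 0.57 with P3C (adjusted p 0.0089) and by 0.71 with R848 (adjusted p 0.00134), and the call with P3C was lost without P3C 2 h A (-0.46) or untreated 2 h A (-0.55).

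Cdt1, the licensing factor that acts with Cdc6, read 11.09 and 11.08 untreated and 10.46 and 10.32 with LPS at 4 h, a difference of -0.69 (SE 0.234, adjusted p 0.0395). Its call was lost whichever of the 4 arrays was left out, at -0.62 to -0.76. Orc6, the smallest subunit of the origin recognition complex, read 10.14 and 10.06 untreated and 9.22 and 9.61 with LPS, a difference of -0.68 (SE 0.194, adjusted p 0.0164), whose call was lost without untreated 4 h A (-0.65), untreated 4 h B (-0.72) or LPS 4 h A (-0.49). Neither gene was called with P3C (Cdt1 -0.24, Orc6 -0.40) or with R848 (-0.36 and -0.52). The other genes of this group, Orc1, Orc2 and Mcm10, differed by -0.18 to 0.14 with LPS at 4 h and were not called. Mcm10 was placed in this group although it helps to activate the helicase once loaded. Orc1 and Orc2 lay close to background, detected on 18 and 7 of 24 arrays, so a fall of either was not measurable over its full range.

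The MCM2-7 helicase is a ring of 6 related ATPases, and 4 of its 6 genes, Mcm2, Mcm3, Mcm4 and Mcm5, were called lower with LPS at 4 h. Mcm5 read 12.16 and 12.33 untreated, 11.04 and 10.95 with LPS, 11.42 and 11.38 with P3C, and 11.27 on both R848 arrays. The groups did not overlap, and the difference was -1.25 with LPS (SE 0.118, adjusted p 1.05e-06), -0.85 with P3C (adjusted p 0.000158) and -0.98 with R848 (adjusted p 3.36e-05). Mcm4 read 11.91 and 11.92 untreated and 10.90 and 10.79 with LPS, and it fell by 1.08 with LPS (SE 0.133, adjusted p 1.7e-05) and by 0.70 with each of P3C (adjusted p 0.00226) and R848 (adjusted p 0.00202). It lay at -0.20 with LPS at 2 h, where it was not called.

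Mcm2 read 9.75 and 9.63 untreated and 9.0 and 9.01 with LPS at 4 h, a difference of -0.68 (SE 0.119, adjusted p 0.000488), and P3C gave -0.49 (adjusted p 0.0128) and R848 -0.57 (adjusted p 0.00406). The P3C call of Mcm2 was lost without P3C 4 h A (-0.47), P3C 4 h B (-0.51) or untreated 4 h A (-0.43), and the R848 call without untreated 4 h A (-0.51). Mcm3 read 8.84 and 8.98 untreated and 8.45 and 8.48 with LPS, a difference of -0.45 (SE 0.12, adjusted p 0.0107) that was lost without LPS 4 h A (-0.44) or untreated 4 h B (-0.38). It was not called with P3C (-0.25) or R848 (-0.30).

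Mcm6 showed a difference as large as that of Mcm4 without being called. Its brightest probe read 10.35 and 10.61 untreated and 9.63 and 9.21 with LPS at 4 h, a difference of -1.06 with an SE of 0.439 (adjusted p 0.0911). The duplicates of this probe differed more than those of any other member (SD 0.484), for example 11.06 and 9.81 with LPS at 2 h. A second Mcm6 probe gave -0.99 (SE 0.197, adjusted p 0.0016 over probes), and one more, near background, gave -0.20. Mcm7 differed by -0.55 and was not called.

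Promoter windows of 4 members are printed because those of Mcm5, Mcm6 and Cdc6 hold letters of an E2F motif, while that of Ung, the member that fell most, has none. Each line gives the 250 bases before a RefSeq start (build GRCm38.p6), 5′ to 3′ on the gene's strand. The start used lay at the outer end of the RefSeq gene for Mcm6, and 41, 69 and 442 bases inside it for Mcm5, Ung and Cdc6, so the Cdc6 window lies wholly within the gene and before a downstream start. Capitals mark matches on either strand to TTTCGCGC, TTTGGCGC, TTTCCCGC or TTTGCCGC (E2F) and to CCAAT.
Cdc6 promoter, chr11:98907901-98908150 (plus strand): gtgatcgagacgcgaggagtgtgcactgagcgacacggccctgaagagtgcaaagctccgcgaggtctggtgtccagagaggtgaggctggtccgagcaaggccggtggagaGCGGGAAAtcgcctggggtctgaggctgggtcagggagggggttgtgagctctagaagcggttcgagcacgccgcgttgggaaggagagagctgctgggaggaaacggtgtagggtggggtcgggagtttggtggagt
Mcm5 promoter, chr8:75109259-75109508 (plus strand): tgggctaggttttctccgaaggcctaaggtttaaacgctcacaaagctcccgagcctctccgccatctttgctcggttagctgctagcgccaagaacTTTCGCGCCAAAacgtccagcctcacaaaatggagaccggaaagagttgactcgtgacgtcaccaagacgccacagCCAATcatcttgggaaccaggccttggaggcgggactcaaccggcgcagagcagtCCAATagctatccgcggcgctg
Mcm6 promoter, chr1:128359706-128359955 (minus strand): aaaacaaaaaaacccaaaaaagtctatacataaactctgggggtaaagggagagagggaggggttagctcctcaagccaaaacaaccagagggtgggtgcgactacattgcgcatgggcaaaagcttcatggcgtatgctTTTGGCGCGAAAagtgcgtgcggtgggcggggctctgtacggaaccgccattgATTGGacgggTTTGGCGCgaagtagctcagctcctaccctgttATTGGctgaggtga
Ung promoter, chr5:114130185-114130434 (plus strand): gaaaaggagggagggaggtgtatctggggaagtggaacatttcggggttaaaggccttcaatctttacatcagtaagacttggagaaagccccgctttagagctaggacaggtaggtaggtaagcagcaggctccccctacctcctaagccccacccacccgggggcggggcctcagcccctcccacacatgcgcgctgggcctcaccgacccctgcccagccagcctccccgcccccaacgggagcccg
In Mcm5, overlapping E2F matches began 153 and 149 bases before the start, with CCAAT at 77 and 22 bases, and in Mcm6 overlapping E2F matches began at 110 and 106 bases and one more at 47 bases. Cdc6 held a single E2F match, 138 bases before the downstream start and so inside the gene. Over windows of 300 bases around the start, 15 of the 40 members with a sequence held an E2F match (37.5%), against 2.6% of 27025 genes, and 65% held CCAAT against 41.1%. Members called lower with LPS at 4 h held an E2F match in 8 of 22 genes (36.4%) and tested members that were not called in 5 of 14 (35.7%). A match is a description of the letters and not a measured binding site.

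Cdc45 and the GINS complex turn the loaded MCM ring into an active helicase, and 2 of the 4 members, Gins1 and Gins4, were called lower with LPS at 4 h. Gins4 read 10.45 and 10.57 untreated and 9.67 and 9.83 with LPS, with P3C at 9.93 on both arrays and R848 at 9.77 and 9.89. No ligand array reached the untreated ones, and Gins4 fell by 0.76 (SE 0.106, adjusted p 5.82e-05), 0.58 (adjusted p 0.00166) and 0.68 (adjusted p 0.000351) in the same order. It lay at -0.22 to -0.33 at 2 h with the 3 ligands, not called.

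Gins1 read 9.59 and 9.60 untreated and 8.64 and 9.01 with LPS at 4 h, a difference of -0.77 (SE 0.221, adjusted p 0.018), while P3C gave -0.83 (adjusted p 0.0234) and R848 -0.87 (adjusted p 0.016). Its call was lost without untreated 4 h A (-0.77), untreated 4 h B (-0.76) or LPS 4 h A (-0.58) with LPS, and without any 1 of the 4 arrays with P3C (-0.81 to -0.86) and R848 (-0.82 to -0.92). Gins2 was called only in 1 comparison, LPS at 2 h, where it read 9.12 and 9.26 against 9.49 and 9.93 untreated, a difference of -0.51 (SE 0.152, adjusted p 0.0387). That call was lost without LPS 2 h A (-0.44), LPS 2 h B (-0.58) or untreated 2 h B (-0.29), and at 4 h Gins2 lay at -0.23. Cdc45 read 9.27 and 8.91 untreated and 8.60 and 8.65 with LPS at 4 h, a difference of -0.47 (SE 0.17, adjusted p 0.056).

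Of the polymerase and primase genes, 3 of 5 tested were called lower with LPS at 4 h. Pold1, the catalytic subunit of polymerase delta, which copies the lagging strand, read 10.48 and 10.52 untreated and 9.32 and 9.23 with LPS, a difference of -1.22 (SE 0.289, adjusted p 0.005). It lay at -0.89 with P3C (adjusted p 0.0637) and at -0.92 with R848 (adjusted p 0.0484), and the R848 call was lost without any 1 of the 4 arrays (-0.82 to -1.02). At 2 h the LPS arrays of Pold1 stood apart from each other, at 9.48 and 10.17.

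Pold2, an accessory subunit of the same enzyme, read 9.83 and 9.61 untreated and 9.22 and 9.17 with LPS, a difference of -0.52 (SE 0.135, adjusted p 0.00898) that was lost without untreated 4 h A (-0.42) or LPS 4 h B (-0.50). Pole, the catalytic subunit of polymerase epsilon, which copies the leading strand, was dim. It read 7.52 and 7.43 untreated, 7.10 and 7.12 after LPS, 7.11 and 7.21 after P3C, and 7.0 and 7.13 after R848. Its differences were -0.37 (SE 0.084, adjusted p 0.00411), -0.31 (adjusted p 0.0254) and -0.41 (adjusted p 0.00362), or -0.85, -0.71 and -0.99 after neqc background correction, of which the P3C call was lost without any 1 of the 4 arrays (-0.26 to -0.36) and the R848 call without R848 4 h A (-0.35) or untreated 4 h A (-0.37). Prim2 and Pola2, of the polymerase alpha and primase complex that lays down primers, differed by -0.23 and 0.01 with LPS at 4 h, not called. Prim2 was called with R848 (-0.35, adjusted p 0.0262), a call lost without any 1 of the 4 arrays (-0.32 to -0.38).

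The clamp loader RFC opens the PCNA ring and places it on DNA, and 3 of the 6 genes of clamp and loader, Rfc1, Rfc2 and Rfc4, were called lower with LPS at 4 h. Rfc2 read 10.77 and 10.56 untreated and 9.82 and 10.11 with LPS, a difference of -0.70 (SE 0.18, adjusted p 0.00837), with -0.70 for P3C (adjusted p 0.0194) and -0.73 for R848 (adjusted p 0.0133). The call was lost without untreated 4 h A (-0.60) or LPS 4 h A (-0.56) with LPS, without untreated 4 h A (-0.59), P3C 4 h A (-0.73) or P3C 4 h B (-0.66) with P3C, and without untreated 4 h A (-0.62), R848 4 h A (-0.76) or R848 4 h B (-0.69) with R848. Its 3 other probes gave -0.74 to -0.96 with LPS, each called lower.

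Rfc1, the large subunit, read 9.0 and 8.94 untreated and 8.25 and 8.10 with LPS at 4 h, a difference of -0.79 (SE 0.201, adjusted p 0.00794) whose call was lost without untreated 4 h A (-0.76) or LPS 4 h B (-0.72). Rfc4 read 9.25 and 9.01 untreated and 8.28 and 8.62 with LPS, and it differed by -0.68 (SE 0.15, adjusted p 0.00302), -0.68 with P3C (adjusted p 0.00691) and -0.74 with R848 (adjusted p 0.00343). Its calls were lost without LPS 4 h A (-0.51), without untreated 4 h A (-0.56) or P3C 4 h B (-0.52), and without untreated 4 h A (-0.62) or R848 4 h B (-0.55), in that order of ligands.

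Rfc3 was called at 2 h with each ligand, at -0.41 with LPS (adjusted p 0.0382), -0.45 with P3C (adjusted p 0.0372) and -0.43 with R848 (adjusted p 0.0466), each with an SE of 0.12. It read 8.19 and 8.57 untreated at 2 h, 7.82 and 8.12 on the LPS arrays, 7.88 and 7.97 on those of P3C, and 7.97 and 7.93 on those of R848. These comparisons share the untreated arrays, and without untreated 2 h B they fell short of the threshold at -0.22, -0.27 and -0.24, as they did without LPS 2 h A (-0.26), P3C 2 h A (-0.41), P3C 2 h B (-0.50), R848 2 h A (-0.44) or R848 2 h B (-0.41). At 4 h Rfc3 was called with R848 (-0.42, adjusted p 0.0323, lost without any 1 of the 4 arrays) and lay at -0.24 with LPS. Rfc5 differed by -0.19 with LPS and was not called. Pcna, the clamp itself and a common S phase marker, was measured by 1 dim probe, which read 7.61 and 7.32 untreated and 7.14 and 6.95 with LPS at 4 h. The difference of -0.42 (SE 0.164, adjusted p 0.0744) was not called, and Pcna was singled out here after its values were seen.

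RPA coats the single strands that the helicase exposes, and its subunits differed. Rpa2 read 9.08 and 9.31 in untreated cells at 4 h and 8.10 and 8.25 with LPS, and at 2 h it read 9.47 and 9.66 untreated, 8.46 and 8.54 after LPS, 8.68 and 8.63 after P3C, and 8.69 and 8.66 after R848. Every ligand array at 2 and 4 h lay below the untreated arrays of its time. Rpa2 fell by 1.06 with LPS at 2 h (SE 0.0957, adjusted p 1.48e-06) and by 1.03 at 4 h (adjusted p 8.76e-07). With P3C it differed by -0.91 at 2 h (adjusted p 2.05e-05) and by -0.79 at 4 h (adjusted p 3.97e-05). With R848 it differed by -0.89 at 2 h (adjusted p 2e-05) and by -0.88 at 4 h (adjusted p 1.17e-05). Its calls at 2 and 4 h were kept whichever array was left out.

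Rpa1, the large subunit, read 11.78 and 11.86 untreated and 10.66 and 10.86 with LPS at 4 h, a difference of -1.07 (SE 0.143, adjusted p 3.97e-05), with -0.74 for P3C (adjusted p 0.00259) and -0.76 for R848 (adjusted p 0.00187). At 2 h it lay at -0.36 with LPS and was not called. Rpa3, the small subunit, read 9.88 and 9.60 untreated and 9.15 and 9.78 with LPS at 4 h, so the groups overlapped, with a difference of -0.28 (SE 0.264, adjusted p 0.497).

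For the joining of Okazaki fragments, Fen1, the nuclease that trims their flaps, read 11.15 and 11.10 untreated, 10.15 and 10.35 after 4 h of LPS, 10.53 and 10.45 after P3C, and 10.46 and 10.49 after R848. All 6 ligand arrays lay below both untreated arrays, and Fen1 fell by 0.88 with LPS (SE 0.128, adjusted p 8.95e-05), by 0.64 with P3C (adjusted p 0.00322) and by 0.66 with R848 (adjusted p 0.00244). At 2 h it was called with LPS (-0.54, adjusted p 0.0114, lost at -0.41 without LPS 2 h B and at -0.51 without untreated 2 h B) and with R848 (-0.60, adjusted p 0.00873, lost at -0.47 without R848 2 h B and at -0.57 without untreated 2 h B). Lig1, the ligase that seals the fragments, read 10.10 and 10.07 untreated and 9.57 and 8.88 with LPS at 4 h, a difference of -0.86 with an SE of 0.315 (adjusted p 0.056). Of the 4 detected Lig1 probes, a second was called lower, at -0.44 (SE 0.0955, adjusted p 0.00297 over probes), and the others enter only the count of further probes below.

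Of the 5 genes of nucleotide supply, 3 were called lower with LPS at 4 h. Tk1, the cytosolic thymidine kinase of dividing cells, read 10.62 and 10.58 untreated, 8.67 and 8.76 on the LPS arrays, 8.98 and 9.09 on the P3C arrays, and 9.06 and 9.10 on the R848 arrays at 4 h. The ligand arrays lay together and far below the untreated pair, with differences of -1.89 (SE 0.201, adjusted p 3.75e-06), -1.56 (adjusted p 7.14e-05) and -1.52 (adjusted p 8.1e-05). At 2 h Tk1 lay at -0.91 with LPS (adjusted p 0.0069), -0.80 with P3C (adjusted p 0.029) and -0.80 with R848 (adjusted p 0.0242). Those calls were lost without untreated 2 h B (-0.87, -0.76 and -0.76), without LPS 2 h B (-0.71), P3C 2 h B (-0.54) or R848 2 h B (-0.55), and, with P3C and R848, without untreated 2 h A (-0.84 each).

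Rrm2, the regulated subunit of ribonucleotide reductase, read 9.03 and 8.80 untreated and 7.94 and 8.32 with LPS at 4 h. The difference was -0.79 (SE 0.177, adjusted p 0.00351), lost without LPS 4 h A (-0.59). A second of the 3 detected Rrm2 probes gave -0.90, called lower. The gene was read from its brightest probe. Rrm2 was not called with P3C (-0.41) or R848 (-0.53). Tyms, thymidylate synthase, read 10.90 and 10.76 untreated and 10.09 and 10.34 with LPS, and differed by -0.61 (SE 0.169, adjusted p 0.0134), -0.70 with P3C (adjusted p 0.0126) and -0.63 with R848 (adjusted p 0.0215). Tyms lost its call without untreated 4 h A (-0.54) or LPS 4 h A (-0.49) with LPS, without P3C 4 h A, P3C 4 h B (both -0.70) or untreated 4 h A (-0.63) with P3C, and without any 1 of the 4 arrays with R848 (-0.56 to -0.70). Rrm1 and Dut, the large reductase subunit and the dUTPase, differed by -0.48 and -0.40 with LPS and were not called.

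The group with the lowest median difference held Dnmt1, Uhrf1, Msh6 and Ung, which keep methylation and sequence intact behind the fork, and all 4 were called lower with each ligand at 4 h. Its median was -1.63 with LPS, against -0.37 for the polymerases. The latter is the value of Pole, a dim probe that lay at -0.85 after neqc background correction. Ung, which removes uracil from DNA, read 9.89 and 9.90 untreated, 7.78 and 7.79 after 4 h of LPS, 8.61 and 8.78 after P3C, and 8.26 and 8.56 after R848. The 4 groups did not overlap, and Ung fell by 2.11 with LPS (SE 0.121, adjusted p 3.41e-09), by 1.20 with P3C (adjusted p 7.06e-06) and by 1.48 with R848 (adjusted p 6.09e-07). It was also the only member called at 1 h, with LPS, where it read 9.81 and 9.68 against 10.24 and 10.27, a difference of -0.50 (adjusted p 0.0298). That 1 h call was lost whichever of the 4 arrays was left out (-0.44 to -0.57). At 2 h Ung lay at -0.85 with LPS (adjusted p 0.000163), -0.72 with P3C (adjusted p 0.00188) and -0.82 with R848 (adjusted p 0.000495), calls that were kept whichever array was left out.

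Msh6, a mismatch recognition protein, read 10.23 and 10.24 untreated and 8.43 and 8.70 with LPS at 4 h, with 9.25 and 9.02 for P3C and 9.09 and 8.92 for R848. It fell by 1.67 (SE 0.202, adjusted p 1.41e-05), 1.10 (adjusted p 0.00184) and 1.23 (adjusted p 0.000618), and a second Msh6 probe gave -1.71 with LPS. At 2 h Msh6 was called with LPS at -0.77 (adjusted p 0.0201), lost without LPS 2 h A (-0.59), untreated 2 h A (-0.70) or untreated 2 h B (-0.85). Uhrf1, which brings Dnmt1 to newly copied DNA, read 11.23 and 11.34 untreated and 9.68 and 9.70 with LPS at 4 h, while at 2 h the LPS arrays, at 11.02 and 11, lay just below the untreated ones at 11.41 and 11.07. Its difference was -1.60 with LPS at 4 h (SE 0.191, adjusted p 1.19e-05), -0.94 with P3C (adjusted p 0.00376) and -1.17 with R848 (adjusted p 0.00057). Dnmt1, the maintenance methyltransferase, included here after its values were seen to complete the group, differed by -0.85, -0.59 and -0.70, and the P3C call was lost without untreated 4 h A (-0.62), untreated 4 h B (-0.57) or P3C 4 h B (-0.51).

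Both tested genes of chromatin assembly, the CAF-1 subunits that place histones on new DNA, were called lower with each ligand at 4 h. Chaf1b read 9.46 and 9.51 untreated and 8.27 and 8.52 with LPS, a difference of -1.09 (SE 0.243, adjusted p 0.00333), with -0.88 for P3C (adjusted p 0.0282) and -0.99 for R848 (adjusted p 0.0127). The Chaf1b call was lost without any 1 of the 4 arrays with P3C (-0.86 to -0.91), and with R848 without untreated 4 h A (-1.01), untreated 4 h B (-0.96) or R848 4 h B (-0.89). Chaf1a read 8.66 and 8.67 untreated and 7.94 and 7.99 with LPS, a difference of -0.70 (SE 0.11, adjusted p 0.000194), with -0.45 for P3C (adjusted p 0.0136) and -0.54 for R848 (adjusted p 0.00362). With P3C at 4 h it was lost without P3C 4 h A (-0.35), untreated 4 h A (-0.46) or untreated 4 h B (-0.44). At 2 h Chaf1a was called with LPS (-0.50, adjusted p 0.00648) and with P3C (-0.41, adjusted p 0.0415), the latter lost without untreated 2 h A (-0.43), untreated 2 h B (-0.39) or P3C 2 h B (-0.29).

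**Figure D2:**
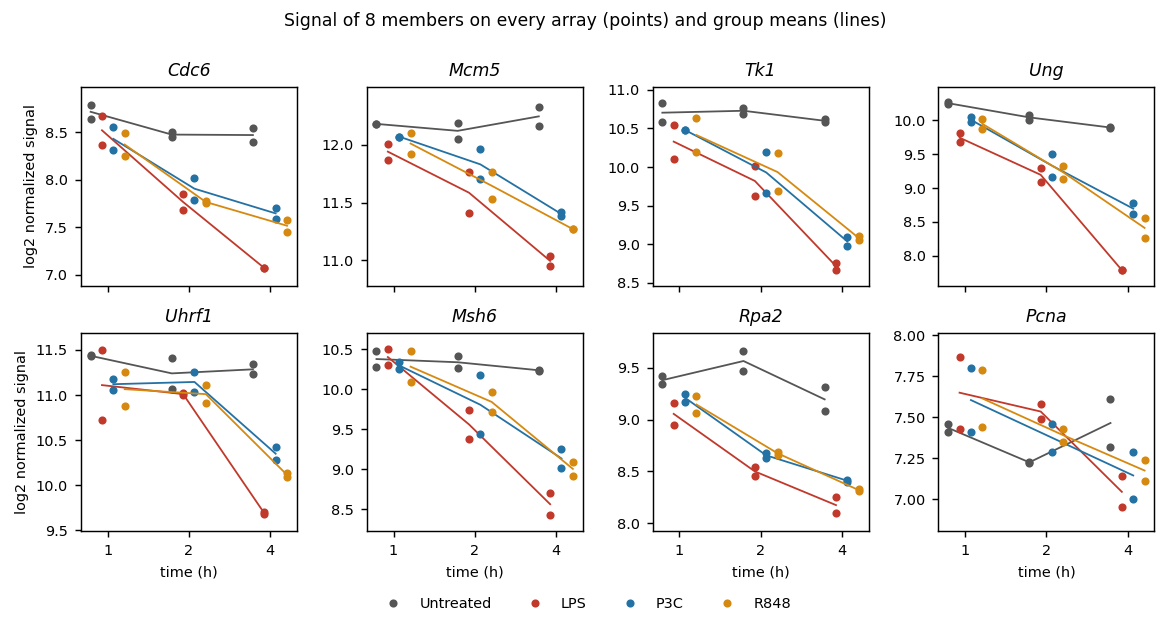
Log2 normalized signal of 8 members on each of the 24 arrays (points, 2 per group) against time in hours, with lines through the group means, for untreated cells and the 3 ligands. At 4 h the LPS arrays of Cdc6 (7.07 and 7.07) and Ung (7.78 and 7.79) lie below those of P3C and R848, while those of Pcna (7.14 and 6.95) overlap them.

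The onset of the fall was read as the first time at which a member was called lower. With LPS, 1 member was first called at 1 h (1.41% of all genes were lower), 11 at 2 h (6.33%) and 17 at 4 h, and 14 were not called. With P3C, no member was called at 1 h (2 at an unadjusted p under 0.05; 1.29% of all genes were lower), 7 were first called at 2 h (2.41% of all genes) and 14 at 4 h. With R848, none was called at 1 h (6 at an unadjusted p under 0.05; 1.38% of all genes were lower), 7 were first called at 2 h (3.24% of all genes) and 16 at 4 h. Whether a member was first called at 2 or at 4 h also reflects its spread, since a difference of one size can pass the threshold for a precise probe and miss it for a noisy one.

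By subcomplex, the helicase ring had 3 of 6 members called with LPS at 2 h (Mcm2, Mcm3 and Mcm5) and the polymerases had 0 of 5. The spread enters here, since Pold1 averaged 9.82 with LPS and 10.33 untreated at 2 h without a call. Its SD between duplicates was 0.316, against 0.121 for Mcm2 and for Mcm5. Mcm2 differed at 2 h by -0.56 (adjusted p 0.00517, lost at -0.40 without untreated 2 h A), Mcm5 by -0.54 (adjusted p 0.00648, lost at -0.37 without LPS 2 h A and at -0.47 without untreated 2 h A) and Mcm3 by -0.41 (adjusted p 0.0356, lost at -0.36 to -0.46 without any 1 array). With P3C only Mcm2 of the ring was called at 2 h (-0.51, adjusted p 0.018, lost without untreated 2 h A at -0.35 or either P3C array at -0.51), and with R848 only Mcm5 (-0.48, adjusted p 0.0215, lost at -0.36 without R848 2 h A and at -0.41 without untreated 2 h A). Median differences with LPS at 1, 2 and 4 h were -0.20, -0.31 and -0.87 for the ring, 0.02, -0.37 and -0.61 for Cdc45 and GINS, -0.11, -0.11 and -0.37 for the polymerases, and -0.10, -0.26 and -0.61 for nucleotide supply. At 4 h the median of the polymerases is the value of Pole, a dim probe. The members of a subcomplex are not replicates, and differences between subcomplexes were not tested.

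At 2 h the counts leaned on single arrays and on the scaling. The LPS count of 12 was 7 without LPS 2 h A and 6 without untreated 2 h B, the P3C count of 7 was 4 without either P3C array or without untreated 2 h B, and the R848 count of 7 was 4 without R848 2 h B. Calls kept whichever array was left out were those of Cdc6, Chaf1a, Rpa2 and Ung with LPS, of Rpa2 and Ung with P3C, and of Cdc6, Rpa2 and Ung with R848. With median scaling 0, 0 and 1 members were called, with medians of -0.17, -0.27 and -0.43. Of all 8622 genes, that scaling called 58, 15 and 52 lower at 2 h, where quantile normalization called 546, 208 and 279. Against the untreated arrays of all times pooled, the LPS differences of Gins2, Mcm3 and Rfc3 at 2 h shrank by over 1.5 times, to between -0.24 and -0.30. At 1 h the members' median turned from -0.12 to 0.03 with LPS and from -0.11 to 0.01 with P3C under median scaling, so no direction is given for 1 h.

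**Figure D3:**
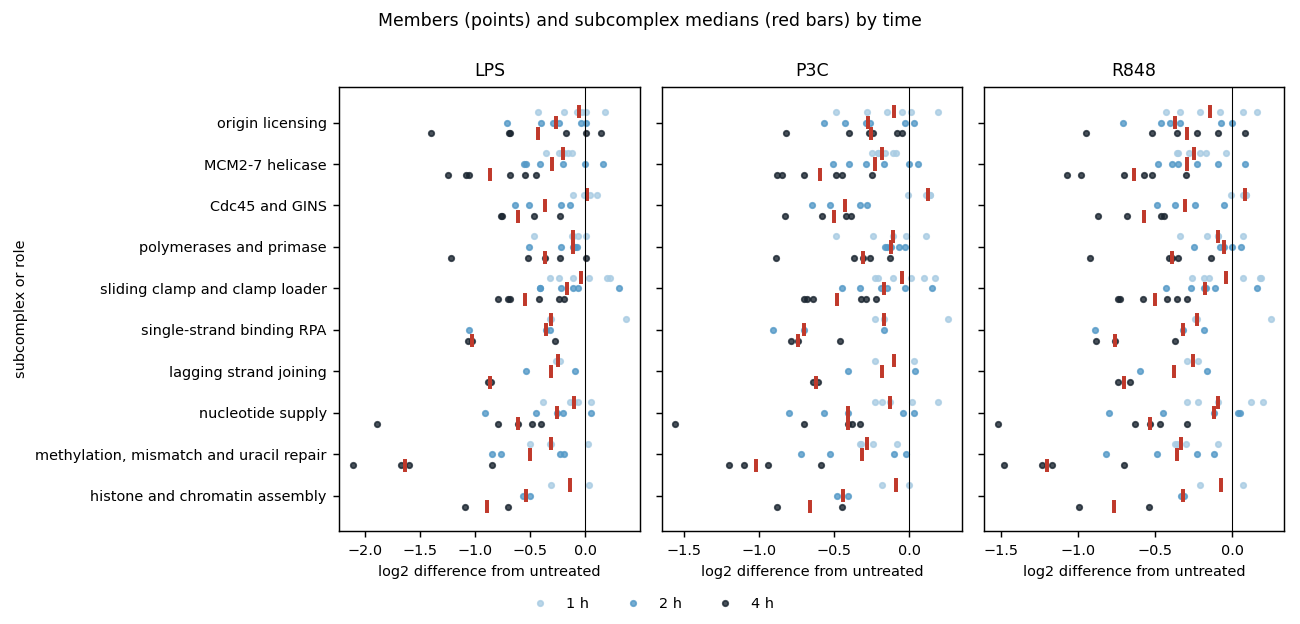
Log2 difference from untreated cells for each member (points, shaded by time) by role, with red bars at the median of each role and time, in 1 panel per ligand. For the helicase ring with LPS the median moves from -0.20 at 1 h to -0.31 at 2 h and -0.87 at 4 h, and for the polymerases from -0.11 to -0.11 and -0.37.

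Whether a difference grew between times was tested as a contrast of differences. From 1 to 4 h the LPS difference grew for 12 members (4.48% of all genes moved lower): Gins4, Mcm4, Mcm5, Fen1, Msh6, Uhrf1, Ung, Tk1, Cdc6, Rpa1, Rpa2 and Rfc4. Of these 12, the calls of 9 were kept whichever array was left out, and those of Fen1, Rfc4 and Rpa1 were lost without 5, 3 and 6 of the 8 arrays in turn. From 2 to 4 h it grew for 5 (1.41% of all genes), by 1.37 for Uhrf1 (SE 0.27, adjusted p 0.00635), by 1.25 for Ung (SE 0.172, adjusted p 0.00026), and by less for Mcm4 (-0.88), Mcm5 (-0.71) and Cdc6 (-0.69). The calls of Uhrf1 and Ung were kept whichever array was left out. From 1 to 2 h Rpa2 alone passed the test, with LPS (-0.74, adjusted p 0.00734; 0.731% of all genes), with P3C (-0.74, adjusted p 0.0167; 0.418%) and with R848 (-0.66, adjusted p 0.0305; 0.499%). These were lost without 2, 5 and 6 of the 8 arrays in turn, for LPS without LPS 1 h A or untreated 2 h B. Between 2 and 4 h the LPS difference of Rpa2 went from -1.06 to -1.03, while that of Uhrf1 went from -0.23 to -1.60. The P3C and R848 differences passed the test from 1 to 4 h for 5 and 7 members (1.17% and 1.46% of all genes) and from 2 to 4 h for 0 (9 and 11 at an unadjusted p under 0.05; 0.244% and 0.151% of all genes).

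The untreated cells gave no called change over time. Of the 43 members, 0 were called between 1 and 2 h, 2 and 4 h, or 1 and 4 h (0, 5 and 3 at an unadjusted p under 0.05; 0, 0 and 0.0116% of all genes were called lower), with medians of -0.04, -0.03 and -0.11. Untreated arrays of 1 and 2 h shared slides with LPS arrays of the next time, which allowed a comparison within slides. On these slides, LPS at 4 h minus untreated at 2 h lay below 0 for 41 of 43 members in A and in B, with medians of -0.82 and -0.75. The lowest values were those of Ung, at -2.30 and -2.22. LPS at 2 h minus untreated at 1 h lay below 0 for 41 members in A and 37 in B, with medians of -0.33 and -0.28. With the slide as a block, 40 members were called lower in the former comparison, where 32.4% of all genes were, and 1 higher, Mcm10 (0.25, SE 0.0747, adjusted p 0.00859; 18.6% of all genes were higher). In the latter, 26 were called lower (17.4% of all genes) and 0 higher (11.2% of all genes). Each comparison mixes treatment with 1 or 2 h of culture. Each of these fits used only 4 arrays and left few residual degrees of freedom. Its p-values thus lean on the spread that limma shares over all genes.

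**Figure D4:**
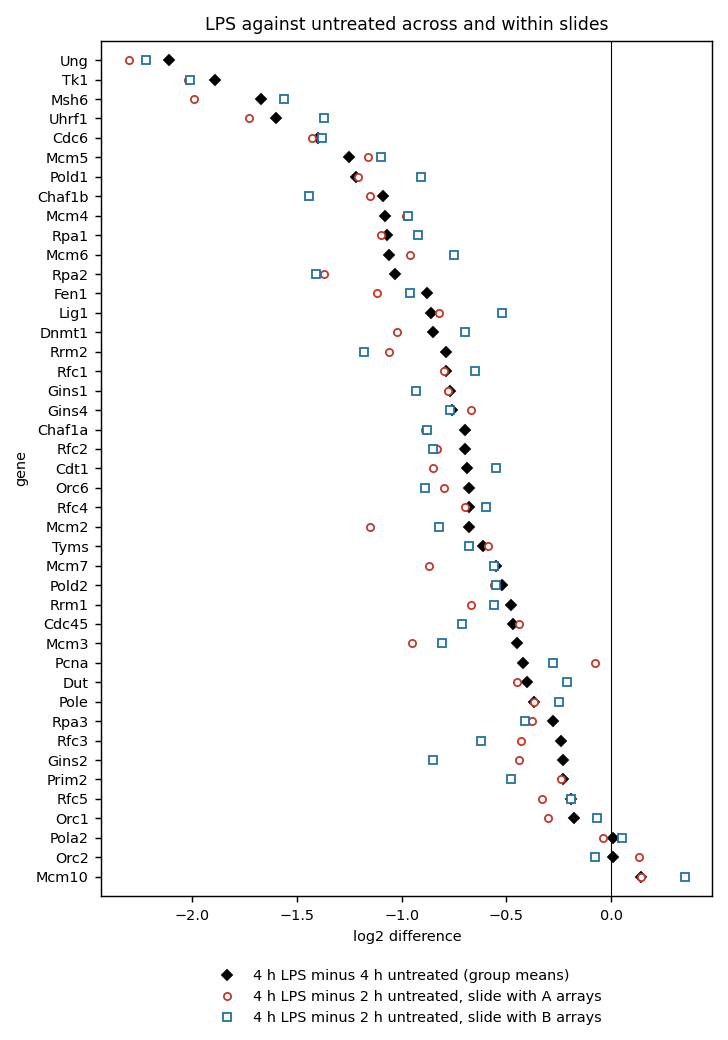
Log2 difference of each member for LPS at 4 h against untreated cells at 4 h on other slides (black diamonds, group means) and against untreated cells at 2 h on the same slide (red circles, A arrays; blue squares, B arrays). Ung lies at -2.11, -2.30 and -2.22, and 41 of 43 members lie below 0 in each slide.

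Between ligands, the calls at 4 h depended on how the slide was treated. In the fit without the slide, 2 members were called lower with LPS than with P3C (1.73% of all genes) and the same number lower than with R848 (1.23% of all genes), in both cases Ung and Cdc6. With the slide as a random block, 8 members were called lower with LPS than with P3C (11% of all genes), among them Mcm5 (-0.43), Mcm4 (-0.34) and Uhrf1 (-0.69). The same fit called 5 lower than with R848, a share near that of all genes (10.5%), and Mcm10 higher in both comparisons (0.39 and 0.36; 7.67% of all genes were higher in each). Without the slide, Ung was lower with LPS by 0.91 against P3C (SE 0.121, adjusted p 0.000137) and by 0.62 against R848 (adjusted p 0.00481), and Cdc6 by 0.58 (SE 0.119, adjusted p 0.00726) and by 0.44 (adjusted p 0.0472). The Cdc6 call against P3C was lost without P3C 4 h A (-0.52), LPS 4 h A (-0.57) or LPS 4 h B (-0.58), its call against R848 without any 1 of the 4 arrays (-0.37 to -0.51), and the Ung call against R848 without R848 4 h B (-0.47). All 4 calls were lost with median scaling, where Ung lay at -1.24 and -0.89 and Cdc6 at -0.73 and -0.55.

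Over all 43 members, the median was -0.18 against P3C and -0.12 against R848, with 33 and 30 of 43 below 0, where the medians of all genes were -0.04 and -0.04. Uhrf1 came nearest to the threshold against P3C (-0.66, SE 0.191, adjusted p 0.0596), and Tk1, with its large fall under each ligand, differed by -0.32 (SE 0.201) against P3C and by -0.36 (SE 0.201) against R848. R848 and P3C differed in 0 members at 4 h (1 at an unadjusted p under 0.05; 0% of all genes were called) and the differences ran from -0.29 to 0.13. At 1 and 2 h no pair of ligands gave a call among the members (1 at an unadjusted p under 0.05, for LPS below P3C at 1 h; at 1 and 2 h, 0% and 0.186% of all genes were called lower with LPS than with P3C, 0.0116% and 0.0928% with LPS than with R848, and 0% with R848 than with P3C). On the slide that held all 3 ligands at 4 h, the members' median was -0.13 for LPS minus P3C and -0.08 for LPS minus R848.

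**Figure D5:**
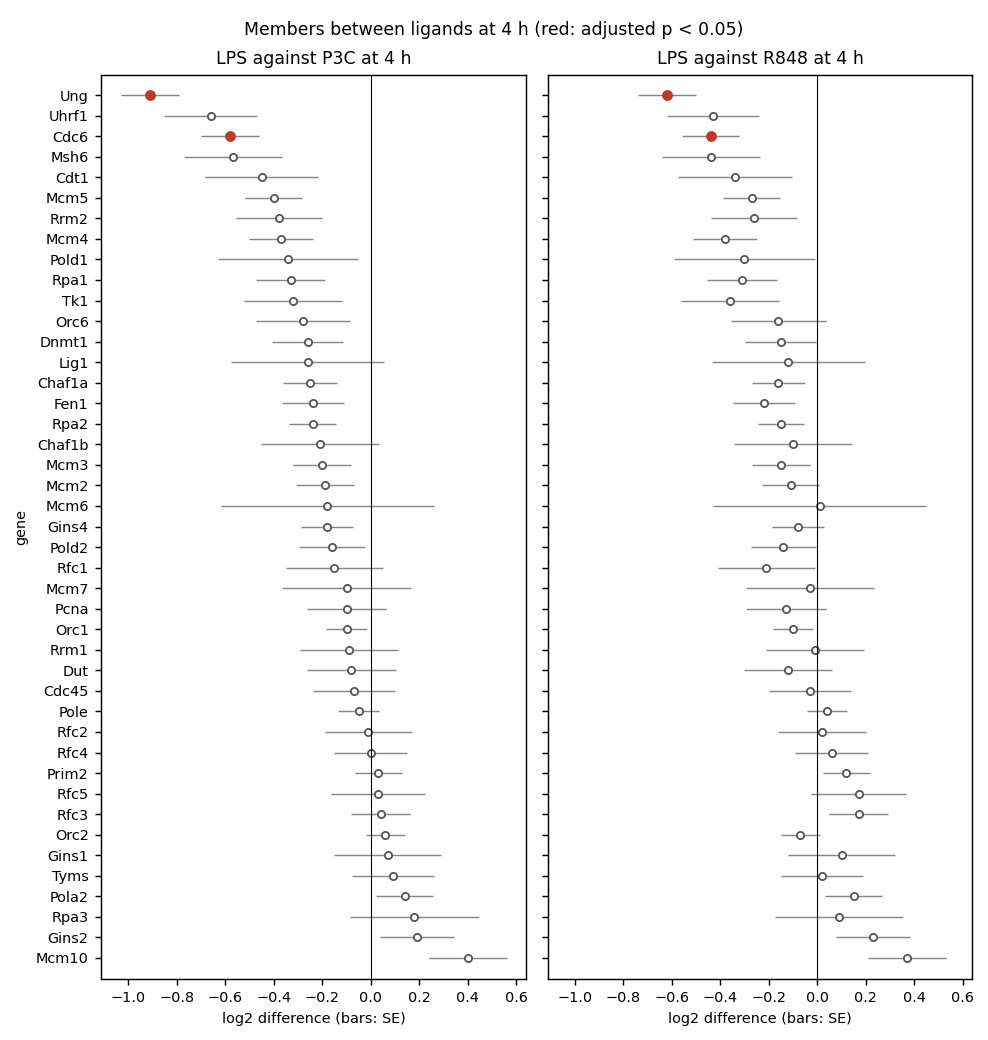
Log2 difference between LPS and P3C (left) and between LPS and R848 (right) at 4 h for the 43 members (points, with bars of 1 SE), in the order of the left panel; red marks an adjusted p under 0.05. Ung (-0.91 and -0.62) and Cdc6 (-0.58 and -0.44) are red in both panels, and Mcm10 (0.40 and 0.37) lies at the other end.

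In all, 13 members were called in none of the 9 comparisons with untreated cells: Cdc45, Dut, Lig1, Mcm10, Mcm6, Mcm7, Orc1, Orc2, Pcna, Pola2, Rfc5, Rpa3 and Rrm1. Their LPS differences at 4 h ran from -1.06 (Mcm6) to 0.14 (Mcm10). Mcm10, which helps to activate the loaded helicase, read 10.17 and 10.41 untreated and 10.48 and 10.37 with LPS at 4 h (difference 0.14, SE 0.16, adjusted p 0.591), and a second, dimmer Mcm10 probe was called higher at 0.36 (SE 0.113, adjusted p 0.0299 over probes). Mcm10 was singled out after its values were seen. Over the 19 members with further detected probes, 28 of 31 such probes lay below 0 with LPS at 4 h, 12 were called lower and 1, that of Mcm10, higher. Their median was -0.20, and most of these probes were not called. The further probes of Ung, Tk1, Mcm4, Tyms, Rpa2 and Rfc4 enter only these counts, so the falls given for these genes rest on the brightest probe alone. Further probes given singly above were mostly ones called lower, and they do not stand for all 31. The lowest level that passed detection averaged 6.9 on the log2 scale, which bounds how far a dim probe can fall.

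Other replication genes outside the list moved in the same comparisons. This list and those of E2F regulators and of mitosis genes below were also chosen with earlier results of these data known. None of them is an independent check of the members. Of 31 tested, 15 were called lower and 1 higher with LPS at 4 h (16% and 10.8% of all genes), with a median of -0.37. At 4 h, 8 were called lower with P3C (5.43% of all genes) and 8 with R848 (6.38% of all genes). The P3C count was 5 without untreated 4 h A or P3C 4 h B, and median scaling gave 2 and 4 for P3C and R848. Cdca7, a chromatin factor of S phase, differed by -1.76 (SE 0.148), Clspn, the claspin checkpoint adaptor, by -1.49 (SE 0.0728), Cdc7, the kinase that fires origins, by -1.05 (SE 0.121), Gins3, a further GINS subunit, by -0.97 (SE 0.12), and Wdhd1, which links polymerase alpha to the helicase, by -0.96 (SE 0.0848). After neqc background correction Gins3 lay at -1.89 and Wdhd1 at -2.2. Of the 31 genes, 3, 2 and 3 were called lower at 1 h with LPS, P3C and R848 (1.41%, 1.29% and 1.38% of all genes). All lay among these 5 genes, which were named for their large LPS difference at 4 h. Gins3 lay at -0.64 with LPS, -0.72 with P3C and -0.69 with R848 at 1 h (adjusted p 0.00509, 0.00219 and 0.00277), and Wdhd1 at -0.45, -0.51 and -0.47 (adjusted p 0.00474, 0.00219 and 0.00358). Clspn was called at 1 h with LPS (-0.36, adjusted p 0.00852) and R848 (-0.38, adjusted p 0.00654), and lay at -0.28 with P3C (adjusted p 0.0511). Without untreated 1 h A the 1 h calls with LPS and R848 were lost (Gins3 -0.51 and -0.56, Wdhd1 -0.36 and -0.38, Clspn -0.33 and -0.35), as they were without LPS 1 h A (Gins3 -0.59, Wdhd1 -0.40), LPS 1 h B (Clspn -0.32) or R848 1 h A (Wdhd1 -0.36, Clspn -0.34), and those with P3C were kept. None of the 1 h calls held with median scaling.

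Of 23 tested regulators of E2F and of the G1 to S transition, 12 were called lower with LPS at 4 h (16% of all genes). The same comparison called 3 higher, a share near that of all genes (10.8%), and the median of the 23 was -0.37. E2f1, an activating E2F factor, differed by -1.15 (SE 0.13, adjusted p 6.82e-06), the kinase gene Cdk2 by -1.12 (SE 0.0937, adjusted p 2.48e-07), and its cyclins Ccne1 by -1.08 (SE 0.122, adjusted p 6.25e-06) and Ccne2 by -1.06 (SE 0.193, adjusted p 0.000731). After neqc background correction Ccne1 and Ccne2 lay at -2.02 and -2.11 with LPS. E2f1 was also called lower with P3C (-0.68) and with R848 (-0.81), calls that were lost with median scaling (-0.74 and -0.91). Cdkn1a, the p21 inhibitor of cyclin-dependent kinases, was higher by 1.05 with LPS (SE 0.175, adjusted p 0.000309), 0.71 with P3C (adjusted p 0.0146) and 0.62 with R848 (adjusted p 0.029). At 1 h, Cdkn1a was higher by 1.39, 1.34 and 1.41 in the same order, called with each ligand, but these calls were lost with median scaling, at 1.65, 1.53 and 1.54, and, for LPS and P3C, in the fit of only the arrays compared. Its 4 h calls were lost without untreated 4 h A (0.64 with P3C, 0.55 with R848), untreated 4 h B (0.69 with R848), P3C 4 h B (0.61) or R848 4 h B (0.45), and with median scaling.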

How the data were processed

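RNA of 24 RAW264.7 cultures was measured on Illumina bead arrays. The paper names them MouseRef-8, while the deposited signals cover 45281 probes per array, at slide positions A to F. The array type was not settled here. Per the labels, the authors deposited probe signal intensity and a detection p-value for each probe, both made in GenomeStudio 2011.1 without normalization, and the standard error of the beads of a probe with the number of beads. A second deposited table holds log2 values of 23937 probes after quantile normalization. No genome was used, and the aligner or build behind the probe annotation is not given in the sources used here. Samples were grouped by ligand and time from the labels.

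Here, quantile normalization was run on the log2 signals of 45281 probes and 24 arrays. Log2 quantile normalization over the probes of the authors' table gave 99.9993% of its deposited values to within 0.001. The filter kept 14119 probes whose detection p was under 0.01 in both duplicates of some group. Of these, 12540 had a gene name, updated through RefSeq, and a gene was read from its brightest probe. The 12 group means were fitted with limma 3.58.1 (lmFit and eBayes, R 4.3.3), and p-values were adjusted by Benjamini and Hochberg over 8622 genes. All ligands of a time share its untreated arrays. The fit was tested on simulated data.

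The members and lists were chosen with earlier results of these data known. Array values, differences, SEs and adjusted p-values are given for up to 3 members per subcomplex with the largest absolute difference for LPS at 4 h, for members called at 1 or 2 h or between ligands at 4 h, and for those higher with LPS at 4 h, 32 members in all, and for other lists for up to 5 genes. Promoters are RefSeq sequences of 250 bases before and 50 after a start (GRCm38.p6), matched by symbol for 40 of 47 members. Tables and plots used version 1.17.8 of data.table, Python 3.11.15, pandas 2.3.3 and matplotlib 3.10.9. Alternatives covered background correction, scaling, filters, controls, slides, the replicate letter, single arrays and thresholds.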

Additional observations from a re-analysis of the deposited data

Results flagged for a closer look

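Results are listed here because a test of the difference between 2 conditions passed an adjusted p of 0.05 in limma, between ligands at 4 h or between times of a ligand. The untreated arrays of a time enter every ligand's change over time, so the ligands' values are not independent of each other, and no explanation was tested.

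Between ligands at 4 h, Ung differed by -0.91 for LPS minus P3C and by -0.62 for LPS minus R848, and Cdc6 by -0.58 and by -0.44. These are the genes of uracil removal and of helicase loading.

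From 1 to 4 h the LPS difference changed by -1.69 for Msh6, -1.60 for Ung, -1.51 for Tk1, -1.27 for Uhrf1, -1.20 for Cdc6 and -1.01 for Mcm5. It changed by -0.92 for Mcm4, -0.88 for Rfc4, -0.80 for Gins4, -0.75 for Rpa1, -0.70 for Rpa2 and -0.65 for Fen1. From 2 to 4 h it changed by -1.37 for Uhrf1, -1.25 for Ung, -0.88 for Mcm4, -0.71 for Mcm5 and -0.69 for Cdc6. The calls of Mcm4, Mcm5 and Cdc6 from 2 to 4 h were lost without 2, 4 and 7 of the 8 arrays in turn. From 1 to 2 h the change of Rpa2 was -0.74 with LPS, -0.74 with P3C and -0.66 with R848. Of the 43 members tested, Rpa2 alone passed in that interval. Its calls were lost without 2, 5 and 6 of the 8 arrays in turn, and with median scaling.

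With P3C the difference changed from 1 to 4 h by -1.33 for Tk1, -0.96 for Ung, -0.74 for Mcm5, -0.71 for Gins4 and -0.63 for Rpa2. The call of Ung was kept whichever of the 8 arrays was left out, and those of Tk1, Mcm5, Gins4 and Rpa2 were lost without 6, 7, 5 and 5 of them. With R848 it changed by -1.23 for Tk1, -1.18 for Ung, -1.13 for Msh6, -0.93 for Rfc4, -0.80 for Mcm5, -0.77 for Gins4 and -0.65 for Rpa2. The calls of Ung and Gins4 were kept, and those of Tk1, Msh6, Rfc4, Mcm5 and Rpa2 were lost without 6, 7, 5, 2 and 4 arrays.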

How the results depend on the processing

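Precision is limited by 2 arrays per group. Counts below are members called lower, of 43. Leaving out each array in turn gave 0 to 1 for LPS at 1 h, 6 to 9 at 2 h and 20 to 24 at 4 h, 0 to 0, 4 to 5 and 11 to 15 for P3C, and 0 to 0, 4 to 8 and 13 to 18 for R848. It gave 1 to 2 for LPS against P3C at 4 h, 0 to 1 for LPS against R848, 0 to 0 for R848 against P3C, and 0 to 0 for untreated cells from 1 to 4 h. For the changes from 1 to 2, 2 to 4 and 1 to 4 h it gave 0 to 1, 2 to 5 and 9 to 13 for LPS, 0 to 1, 0 to 0 and 1 to 4 for P3C, and 0 to 1, 0 to 0 and 3 to 5 for R848. With median scaling the counts were 0 for LPS at 1 and 2 h, 0 and 4 for P3C at 2 and 4 h, 1 and 7 for R848, 0 for LPS against R848, and 0 for the changes from 1 to 2 h of each ligand and from 1 to 4 h of P3C and R848. That scaling moved the median of all genes for LPS at 4 h from -0.06 to -0.33 and the split of lower and higher genes from 1377 and 934 to 1428 and 325, against which the members' median was -1.11. For P3C and R848 at 4 h it moved the number of all genes called lower from 468 and 550 to 93 and 131. Background correction by neqc gave 0 for LPS at 1 h, 0 and 3 for the P3C changes from 1 to 2 and 1 to 4 h, and 0 and 1 for the R848 changes from 1 to 2 and 2 to 4 h. Pooled untreated arrays gave 0 for LPS at 1 h and 31 for P3C at 4 h. Fits on only the arrays compared gave 0, 2, 0 and 0 for LPS at 1 and 2 h and for P3C and R848 at 2 h, 0 for LPS against R848, 0 and 3 for the LPS changes from 1 to 2 and 2 to 4 h, 0 and 11 for the P3C changes from 1 to 2 and 1 to 4 h, and 0 for that of R848 from 1 to 2 h. With the slide as a random block (correlation 0.602) they were 3, 13 and 11 for LPS at 1 h and P3C and R848 at 2 h, 8 and 5 for LPS against P3C and R848, and 9 and 12 for the P3C and R848 changes from 1 to 4 h, and on the same slides 26 for LPS at 2 h. The letters A and B are not known to pair the cultures, and A minus B correlated between a ligand and the untreated cells at 0.0612 to 0.428. With the replicate block the counts were 4 for LPS against P3C and 8 for the LPS change from 2 to 4 h, and it ended no call. A limit of 0.01 on the adjusted p gave 0 and 7 for LPS at 1 and 2 h, 3 and 12 for P3C at 2 and 4 h, 4 for R848 at 2 h, 1 for LPS against R848, 2 for the LPS change from 2 to 4 h, 0 and 1 for the P3C changes and 0 and 2 for the R848 changes from 1 to 2 and 1 to 4 h. A limit of 1.5-fold gave 0, 5 and 3 for LPS at 1 and 2 h and P3C at 2 h, and 1 for LPS against P3C and against R848. Detection on all 24 arrays and no detection filter each gave 1 for LPS against R848. All other counts moved by at most 1.5 times, no member's call reversed under any alternative run, and the authors' normalized table changed none of 860 member results. The cause of these shifts was not tested.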

Other observations

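Genes of mitosis act after S phase and were listed apart from the replication genes. Of 19 tested, 10 were called lower in limma with LPS at 4 h (16% of all genes), with a median of -0.57. The count was 2 without untreated 4 h A, 3 without LPS 4 h A and 4 without untreated 4 h B. With P3C and R848 at 4 h, 0 were called, where 5.43% and 6.38% of all genes were called lower. At an unadjusted p under 0.05 the counts were 3 and 4, at medians of -0.28 and -0.34. Fits on only the arrays compared called 3 and 6. Prc1, which bundles the microtubules of the central spindle, differed by -0.79 with LPS (SE 0.112, adjusted p 6.68e-05), by -0.20 with P3C and by -0.35 with R848. Mki67, the Ki-67 proliferation antigen, differed by -0.80 with LPS (adjusted p 0.0133), Cdc20, the activator of the anaphase-promoting complex, by -0.73 (adjusted p 0.0234), and Birc5, survivin, by -0.71 (adjusted p 0.0199), while Kif23, a central spindle kinesin, lay at -0.73 and was not called. The calls of Mki67, Cdc20 and Birc5 were lost without untreated 4 h A (-0.78, -0.83 and -0.64), untreated 4 h B (-0.82, -0.64 and -0.79) or LPS 4 h A (-0.73, -0.60 and -0.47). In the direct comparison of ligands at 4 h, LPS was lower than P3C for 1 of the 19 genes (1.73% of all genes) and lower than R848 for 1 (1.23% of all genes).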
